A study of Mus musculus with 32 samples.

Results

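The 8 genes described here encode proteins that hold back mTORC1, the kinase complex that couples nutrients and growth factors to protein synthesis. They are the sestrins Sesn1, Sesn2 and Sesn3, the stress-response genes Ddit4 (Redd1) and Ddit4l (Redd2), the translation repressors Eif4ebp1 and Eif4ebp2, and Deptor. They were taken by gene symbol from 54838 genes listed, of which 48586 had counts. The libraries are total RNA of gastrocnemius, quadriceps and tibialis, 3 hind-leg muscles of male mice no older than 3 months. Sick knock-in mice carried the GNE M743T/M743T knock-in and were labelled sick, healthy knock-in mice carried the same homozygous knock-in and were labelled healthy, and wild-type mice carried no knock-in and were labelled healthy. The enzyme made from Gne starts the synthesis of sialic acid, and mutations of the human gene cause GNE myopathy. Gastrocnemius gave 3 sick, 3 healthy knock-in and 4 wild-type libraries, and quadriceps and tibialis each gave 3 sick, 4 healthy knock-in and 4 wild-type libraries, so that 32 libraries form 9 groups. What marked a mouse as sick is not stated in the labels, nor is which libraries of different muscles share a mouse. P-values here measure only the spread among libraries, part of which may be technical.

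mTORC1 works on the lysosome, where Rag GTPases recruit it when amino acids are plentiful and Rheb switches it on when insulin or growth factors signal. Sestrins bind GATOR2 and so keep the Rag GTPases inactive when leucine is short, and they are also stress genes driven by p53, FoxO factors and ATF4. Ddit4 and Ddit4l act one step to the side, through the TSC complex that inactivates Rheb. Deptor binds the mTOR kinase itself. The 4E-BPs are substrates of mTORC1: unphosphorylated, they clamp the cap-binding factor eIF4E and block initiation of translation. In skeletal muscle, Ddit4 and Eif4ebp1 are known to rise in fasting and under glucocorticoids. The measurements here are transcript levels, and no phosphorylation or protein was measured.

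Total counts ran from 7685164 to 42588233 per library. Every one of the 10 fibre markers was present in every group, with summed levels of 96100 to 199000 CPM (the count scaled to the library's total) over all libraries. Of these 10 markers 3 were called lower in sick than in wild-type tibialis, and 2 higher in sick than in healthy knock-in gastrocnemius. Mitochondrial genome genes took 4.79 to 12.3% of the counts in sick libraries, 6.94 to 14.6% in healthy knock-in libraries and 7.04 to 15.5% in wild-type libraries. The 5 markers of fibro-adipogenic progenitors, the connective-tissue cells of muscle, summed to 577 to 1080 CPM in sick gastrocnemius, against 1240 to 2560 CPM in wild-type gastrocnemius. They summed to 976 to 1390 CPM in sick quadriceps, against 1270 to 3530 CPM in wild-type quadriceps, and to 280 to 529 CPM in sick tibialis, against 1020 to 2420 CPM in wild-type tibialis. All 5 kidney tubule markers were read in the 4 wild-type tibialis libraries, at 51.5 to 69.5 CPM in sum, against 0.0397 to 0.184 CPM in sick tibialis, where Umod, Slc12a1 and Slc34a1 were at 0, and 0 to 1.4 CPM in healthy knock-in tibialis. They reached 20.7 CPM in the highest healthy knock-in gastrocnemius library, and at most 0.748 CPM in the other groups of gastrocnemius and quadriceps. The 4 erythrocyte markers summed to 157 to 277 CPM in sick, 57.8 to 141 CPM in healthy knock-in and 73.3 to 148 CPM in wild-type gastrocnemius, with 3 of 4 called higher in sick than in either. Of 3 satellite cell markers, 1 was called higher in sick than in either other state in each muscle. In gastrocnemius and quadriceps 1 was also lower than in wild type. Between sick and wild type, 2 of 6 macrophage markers were higher in quadriceps. The 1 neutrophil marker tested was higher in gastrocnemius. In sick quadriceps 1 of 5 adipocyte markers was lower than in either other state. There 1 of 5 endothelium markers was lower than in healthy knock-in. In total muscle RNA, fewer cells of a type and less RNA per cell cannot be told apart, and the part of these shifts in the results below was not tested.

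Sick knock-in muscle carried more transcript of Sesn1 and Eif4ebp1 than wild-type muscle in all 3 muscles. Sesn1 was 10.2-fold, 7.88-fold and 9.31-fold higher and Eif4ebp1 8.79-fold, 7.83-fold and 5.19-fold higher, in the order gastrocnemius, quadriceps, tibialis. Ddit4 passed the test in quadriceps and tibialis, at 20.3-fold and 9.40-fold higher. The nearest relatives of these genes gave other calls: Sesn2 passed in no muscle, Sesn3 fell in quadriceps, Ddit4l fell in gastrocnemius, and Eif4ebp2 rose in tibialis by 1.60-fold. Deptor passed in no muscle. All 8 genes passed the filter on low counts in each muscle.

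By limma with an adjusted p under 0.05 over all genes tested, 2 of the 8 genes were higher and 1 lower in sick than in wild-type gastrocnemius, where 8.22% of 14155 genes were higher and 6.52% lower. In quadriceps 3 were higher and 1 lower, against 10.5% higher and 7.49% lower of 13799 genes. In tibialis 4 were higher and none lower, against 8.44% higher and 9.61% lower of 14520 genes. The median log2 fold change of the 8 genes was 0.38 in gastrocnemius, 0.27 in quadriceps and 0.71 in tibialis, beside medians of all genes tested of -0.03, 0.00039 and -0.05. Without sick replicate 2 the quadriceps count was 1 gene, and without sick replicate 3 or any of wild-type replicates 1, 2 and 3 it was 2 genes. Over all genes that count is itself unsteady: without sick replicate 2, 83 genes passed in quadriceps, 561 in gastrocnemius and 957 in tibialis, where the full sets gave 2489, 2086 and 2621.

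**Figure D1:**
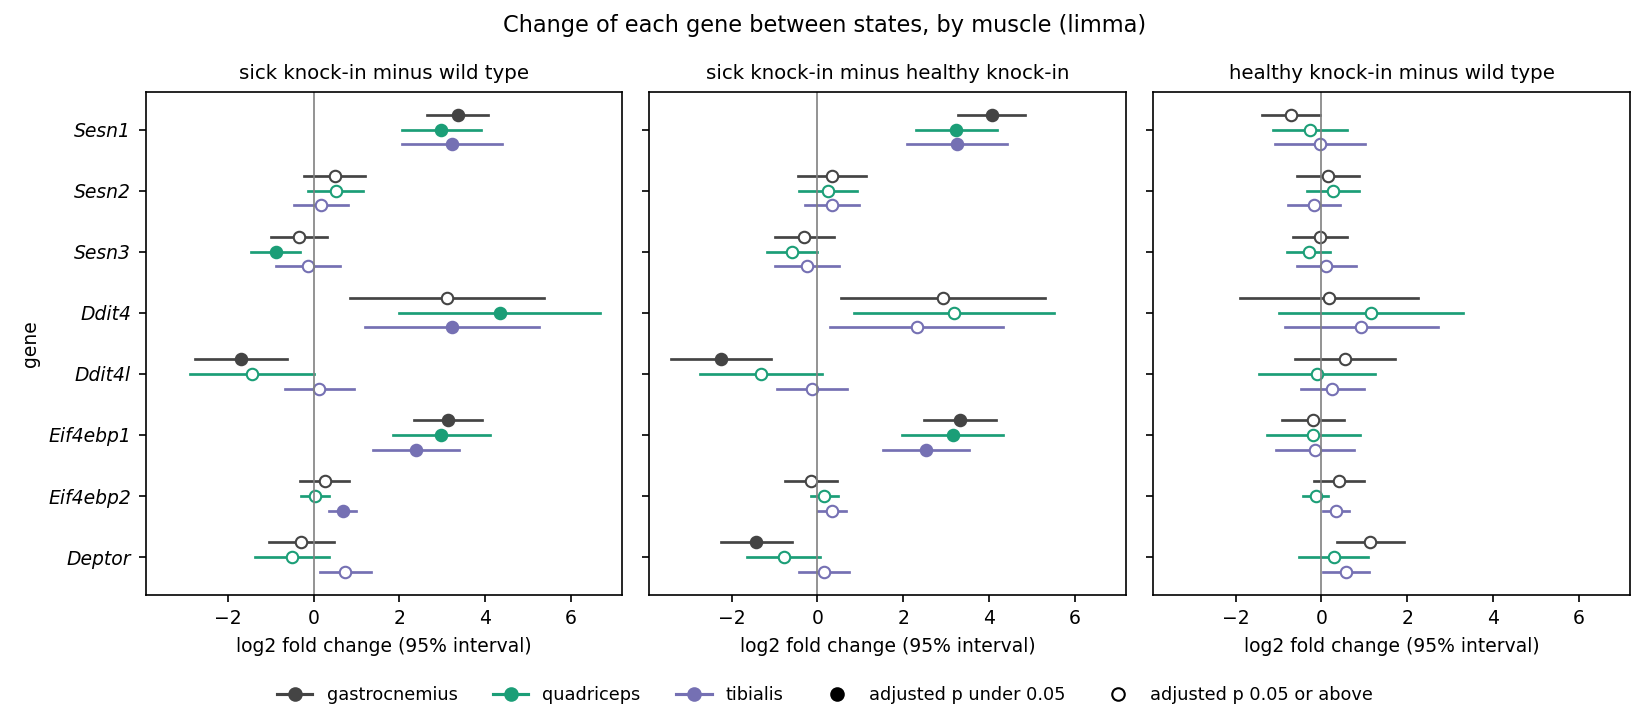
Log2 fold change of each gene (horizontal axis) with its 95% interval, in gastrocnemius, quadriceps and tibialis, for sick knock-in minus wild type, sick minus healthy knock-in, and healthy knock-in minus wild type. Filled points have an adjusted p under 0.05 (limma). Sesn1 and Eif4ebp1 lie between 2.38 and 4.06 in all 6 comparisons of sick muscle, and no point is filled in the panel of healthy knock-in against wild type.

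Sesn1 (ENSMUSG00000038332; GRCm38 chr10:41809935-41908424, plus strand) encodes sestrin 1, the sestrin most associated with skeletal muscle and a p53 and FoxO target. RefSeq lists 2 starts for it, far apart in the gene. The 300-base windows around both, from 250 bases before to 50 after the start, are shown because Sesn1 was the member with the lowest p in the gastrocnemius, and because each holds 1 match to a motif of factors known to drive the gene. Capitals mark the FoxO site (TGTTTAC, 22 bases after the start) in the first window and the p53 half-site (173 bases before the start) in the second.
Sesn1 upstream start, chr10:41810324-41810623 (plus strand, GRCm38.p6): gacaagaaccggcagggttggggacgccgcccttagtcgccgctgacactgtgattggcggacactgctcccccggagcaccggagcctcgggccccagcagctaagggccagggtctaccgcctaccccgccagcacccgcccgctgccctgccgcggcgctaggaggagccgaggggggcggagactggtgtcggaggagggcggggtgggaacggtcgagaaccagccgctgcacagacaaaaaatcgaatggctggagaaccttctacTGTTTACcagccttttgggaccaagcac
Sesn1 downstream start, chr10:41887189-41887488 (plus strand, GRCm38.p6): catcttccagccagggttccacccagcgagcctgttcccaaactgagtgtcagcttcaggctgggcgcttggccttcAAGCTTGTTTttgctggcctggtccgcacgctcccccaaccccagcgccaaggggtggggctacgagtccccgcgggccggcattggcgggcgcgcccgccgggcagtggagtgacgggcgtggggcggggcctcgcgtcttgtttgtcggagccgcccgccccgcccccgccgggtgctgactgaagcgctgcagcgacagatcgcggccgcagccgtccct
Among 32851 RefSeq mouse promoters of this length, 3.65% hold the FoxO site and 8.36% the p53 half-site on either strand. The windows of Sesn2, Sesn3 and Eif4ebp2, not shown, held neither. The counts are per gene, so they do not say which start was used.

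Sesn1 stood at 198, 536 and 299 CPM in sick gastrocnemius (replicates 1, 2 and 3), against 27.2, 28.0, 35.3 and 32.8 CPM in wild-type gastrocnemius. Sick quadriceps held 603, 236 and 161 CPM (replicates 2, 3 and 4), against 33.4, 28.7, 45.3 and 39.0 CPM in wild-type quadriceps. Sick tibialis held 174, 859 and 141 CPM (replicates 1, 2 and 4), against 25.5, 26.8, 38.3 and 28.1 CPM in wild-type tibialis. Every sick library lay above every wild-type library, and sick replicate 2 was the highest of its group in each muscle. The sick libraries differed among themselves several-fold, with means of 344 ± 173 CPM in gastrocnemius and 334 ± 237 CPM in quadriceps (SD, n = 3 each). Its log2 fold change was 3.35 ± 0.33 in gastrocnemius (estimate ± SE, limma adjusted p = 0.00097), 2.98 ± 0.42 in quadriceps (0.00596) and 3.22 ± 0.54 in tibialis (0.0055). Without sick replicate 2 it was 3.01, 2.43 and 2.44, with a limma adjusted p of 0.00255, 0.0205 and 0.00959.

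**Figure D2:**
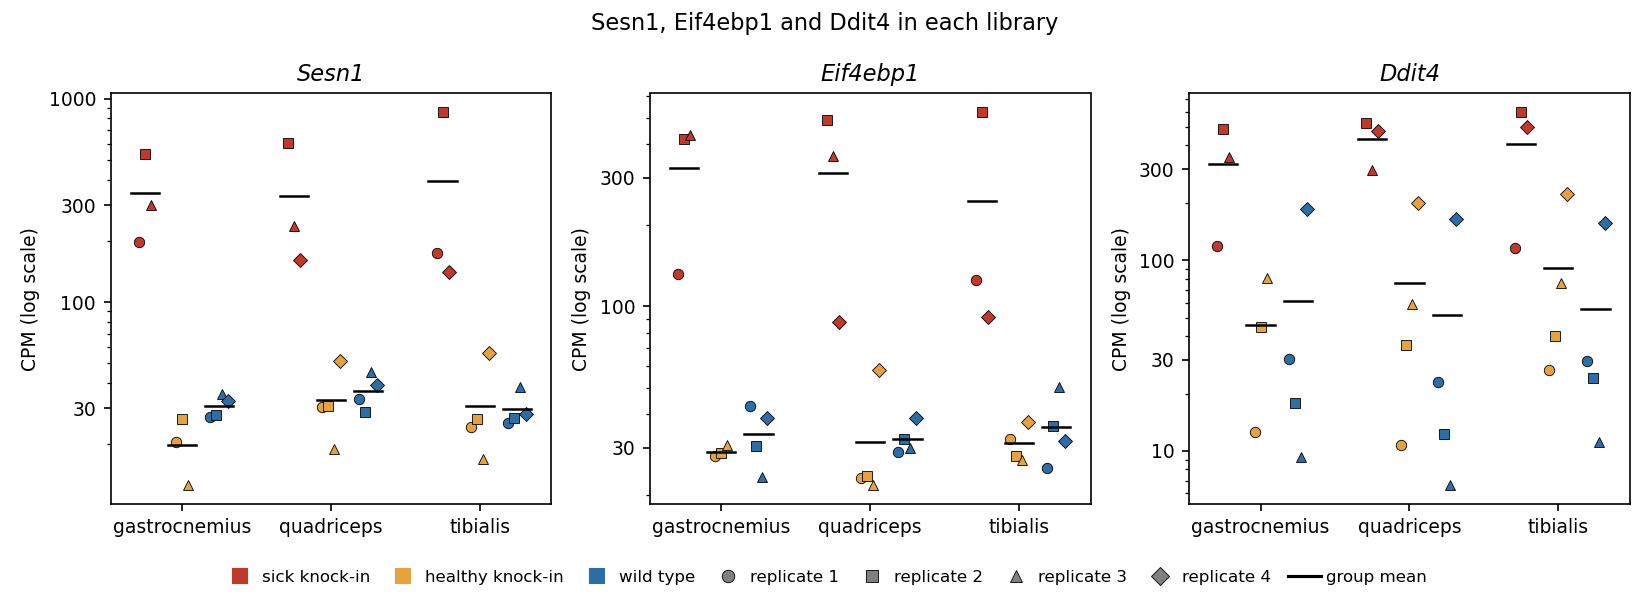
CPM of Sesn1, Eif4ebp1 and Ddit4 (vertical axis, log scale) in each of the 32 libraries, by muscle, with sick knock-in, healthy knock-in and wild type from left to right. Symbols give the replicate number and black bars the group means. For Sesn1 and Eif4ebp1 every sick library lies above all libraries of the other states, and for Ddit4 wild-type replicate 4 stands at 157 to 186 CPM, far above the other wild-type libraries.

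The other sestrins were not called higher in any muscle. Sesn2 (chr4:132492032-132510501, minus strand), the sestrin known as a leucine sensor and as an ATF4 target, held 3.24, 7.65 and 2.82 CPM in sick gastrocnemius, against 3.13, 3.17, 3.45 and 2.73 CPM in wild-type gastrocnemius. Only sick replicate 2, with 144 reads of the gene, stood apart. In quadriceps the sick libraries ran from 3.32 to 5.89 CPM and the wild-type libraries from 2.45 to 3.69 CPM, and in tibialis they ran from 2.85 to 5.16 CPM and from 2.95 to 4.23 CPM. The groups overlapped in each muscle. The log2 fold changes of 0.49 ± 0.32, 0.52 ± 0.29 and 0.18 ± 0.29 did not pass (limma adjusted p = 0.305, 0.221 and 0.683), with 95% intervals that reach 1.2, 1.16 and 0.80.

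Sesn3 (chr9:14275067-14333101, plus strand), a FoxO target in other tissues, went the other way in quadriceps. It held 17.6, 23.7 and 17.4 CPM in sick quadriceps, against 46.1, 31.8, 39.4 and 27.1 CPM in wild-type quadriceps. No sick library reached the lowest wild-type library. The log2 fold change was -0.89 ± 0.26 (limma adjusted p = 0.0364). This call was lost without wild-type replicate 1, 2 or 3 and without any 1 of the 3 sick libraries, with limma adjusted p of 0.0559 to 0.172. In gastrocnemius and tibialis the groups overlapped, at 17.2 to 36.2 CPM in sick and 22.5 to 41.6 CPM in wild-type gastrocnemius, and at 13.5 to 37.8 CPM in sick and 19.2 to 37.7 CPM in wild-type tibialis. Their log2 fold changes were -0.34 ± 0.29 and -0.14 ± 0.34 (limma adjusted p = 0.451 and 0.798).

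The makeup of the sestrin transcripts was set out next. Per kilobase of exon, Sesn1 made up 93.8 to 97.5% of the 3 sestrins in sick gastrocnemius, 55 to 65.6% in healthy knock-in gastrocnemius and 70.5 to 76.2% in wild-type gastrocnemius. In quadriceps its share was 93.4 to 98.6% in sick, 59.4 to 80.3% in healthy knock-in and 68.7 to 79.8% in wild-type libraries. In tibialis it was 92.6 to 98.9% in sick, 55.7 to 85.6% in healthy knock-in and 63.5 to 81.0% in wild-type libraries. The sick range lay above both others in each muscle. These shares were computed after the levels were seen and carry no test. They depend on lengths over all annotated exons, 3982 bases for Sesn1 and 15269 for Sesn3, which need not be those of the transcripts present. Not divided by length, Sesn1 and Sesn3 averaged 30.8 and 29.9 CPM in wild-type gastrocnemius. They averaged 36.6 and 36.1 CPM in wild-type quadriceps and 29.7 and 26.1 CPM in wild-type tibialis.

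Ddit4 (ENSMUSG00000020108; chr10:59949669-59951834, minus strand), also known as Redd1, is a short-lived transcript raised by glucocorticoids, hypoxia and energy stress. Its promoter window is shown for comparison with that of its relative Ddit4l. Against wild type, Ddit4 was called higher in quadriceps and tibialis and Ddit4l lower in gastrocnemius, so no muscle had both called. Searched on both strands for the FoxO site, the p53 half-site, the C/EBP-ATF response element (TGATGNAA), the E-box (CACGTG) and the glucocorticoid receptor half-site (AGAACA), the Ddit4 window held none, and the Ddit4l window held 1 p53 half-site, 90 bases before the start, in capitals.
Ddit4, chr10:59951721-59952020 (minus strand, GRCm38.p6): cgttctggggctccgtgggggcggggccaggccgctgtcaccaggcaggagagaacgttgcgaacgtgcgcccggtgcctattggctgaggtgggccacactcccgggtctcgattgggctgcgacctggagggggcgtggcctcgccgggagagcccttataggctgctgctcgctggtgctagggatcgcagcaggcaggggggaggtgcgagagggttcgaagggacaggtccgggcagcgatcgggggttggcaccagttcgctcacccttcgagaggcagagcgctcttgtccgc
Ddit4l, chr3:137623422-137623721 (plus strand, GRCm38.p6): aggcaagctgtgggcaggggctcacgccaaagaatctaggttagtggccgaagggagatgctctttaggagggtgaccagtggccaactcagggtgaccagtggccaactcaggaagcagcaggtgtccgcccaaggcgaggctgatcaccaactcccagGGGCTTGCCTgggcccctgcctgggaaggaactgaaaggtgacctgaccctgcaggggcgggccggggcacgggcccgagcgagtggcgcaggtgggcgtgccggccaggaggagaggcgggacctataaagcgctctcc
The C/EBP-ATF element stands in 3.97%, the E-box in 7.15% and the glucocorticoid receptor half-site in 19% of all promoters of this length, and in none of the 7 windows of the 6 members that RefSeq lists here. A match, or its absence from a short window, describes letters and not binding.

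The level of Ddit4 was 118, 488 and 347 CPM in sick gastrocnemius, against 30.2, 17.9, 9.26 and 186 CPM in wild-type gastrocnemius. In sick quadriceps it was 521, 297 and 477 CPM, against 23.1, 12.2, 6.63 and 165 CPM in wild-type quadriceps. In sick tibialis it was 116, 597 and 499 CPM, against 29.7, 24.2, 11.2 and 157 CPM in wild-type tibialis. Wild-type replicate 4 was the high wild-type library in every muscle. It exceeded sick replicate 1 in gastrocnemius and in tibialis, while in quadriceps the groups did not overlap. The log2 fold change was 3.11 ± 1.02 in gastrocnemius (limma adjusted p = 0.0649, not passed), 4.34 ± 1.06 in quadriceps (0.0234) and 3.23 ± 0.93 in tibialis (0.0339).

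Leaving out single libraries changed these Ddit4 calls. Without wild-type replicate 4 the log2 fold change was 3.99, 5.17 and 4.0 and passed in all 3 muscles (limma adjusted p = 0.0185, 0.0125 and 0.0156). Without wild-type replicate 1, 2 or 3, or sick replicate 2 or 3, the quadriceps call was lost (0.0539 to 0.117). In tibialis it was lost without wild-type replicate 1, 2 or 3 or sick replicate 2 or 4 (0.0684 to 0.128). Over 13 alternatives, other processing settings included, the tibialis call was lost in 7 and the quadriceps call in 5. The log2 fold change stayed between 2.49 and 5.17 in these and the other single omissions.

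Ddit4l (ENSMUSG00000046818; chr3:137621612-137628333, plus strand), or Redd2, is enriched in skeletal muscle. It fell in gastrocnemius, to 83.5, 21.6 and 103 CPM in sick libraries, against 216, 202, 121 and 221 CPM in wild-type libraries. Every sick library lay below every wild-type library there, and sick replicate 2 was the lowest. The log2 fold change was -1.69 ± 0.49 (limma adjusted p = 0.0423). The call was lost without any 1 of the wild-type libraries (0.0582 to 0.0956) or without sick replicate 2, where the log2 fold change was -0.998 (0.0694). Over 13 alternatives, other processing settings included, the gastrocnemius call was lost in 8. Sick quadriceps held 23.3, 124 and 213 CPM, against 233, 223, 256 and 221 CPM in wild-type quadriceps. All 3 sick libraries were again below the wild-type ones, but they spread widely and the log2 fold change of -1.43 ± 0.65 did not pass (limma adjusted p = 0.139). Without sick replicate 4 it was -2.19 and passed (0.0284). In tibialis the groups overlapped, at 138 to 244 CPM in sick and 113 to 189 CPM in wild-type libraries, with a log2 fold change of 0.13 ± 0.37 (limma adjusted p = 0.821). Per kilobase of exon, Ddit4 made up 70.1 to 97.4% of the pair in sick gastrocnemius, 7.35 to 37.7% in healthy knock-in and 11.3 to 58.3% in wild-type gastrocnemius. Its share was 78.8 to 97.4% in sick, 5.11 to 76.2% in healthy knock-in and 4.13 to 55.4% in wild-type quadriceps. In tibialis it was 57.6 to 87.8% in sick, 16.5 to 79.9% in healthy knock-in and 9.14 to 69.8% in wild-type libraries, so the ranges overlapped there and not in the other muscles. These shares too were computed after the levels were seen and were not tested.

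Eif4ebp1 (ENSMUSG00000031490; chr8:27260329-27276674, plus strand) encodes 4E-BP1, the best-studied repressor of cap-dependent translation and itself a known ATF4 target. It held 132, 419 and 431 CPM in sick gastrocnemius, against 42.7, 30.3, 23.3 and 38.7 CPM in wild-type gastrocnemius. Sick quadriceps held 489, 360 and 87.9 CPM, against 28.8, 32.4, 29.8 and 38.7 CPM in wild-type quadriceps. Sick tibialis held 125, 525 and 91.8 CPM, against 25.2, 36.2, 50.2 and 31.7 CPM in wild-type tibialis. All 9 sick libraries lay above all wild-type libraries, and the same sick replicates were low for Sesn1 and Eif4ebp1: replicate 1 in gastrocnemius, 4 in quadriceps, and 1 and 4 in tibialis. In limma the log2 fold change was 3.14 ± 0.36 in gastrocnemius (adjusted p = 0.00154), 2.97 ± 0.51 in quadriceps (0.01) and 2.38 ± 0.46 in tibialis (0.00935). Without sick replicate 2 the quadriceps value was 2.47 and did not pass (limma adjusted p = 0.055), and the tibialis value was 1.65 (0.0079).

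Eif4ebp2 (ENSMUSG00000020091; chr10:61428491-61452661, minus strand) encodes 4E-BP2, the second repressor of this kind. It rose in sick tibialis, to 360, 414 and 414 CPM, against 238, 244, 228 and 280 CPM in wild-type tibialis. The groups did not overlap there, and the log2 fold change was 0.68 ± 0.15 (limma adjusted p = 0.014). Healthy knock-in tibialis, which lacked the kidney reads of wild-type tibialis, held 343, 275, 339 and 288 CPM of Eif4ebp2, below all sick tibialis libraries. Against healthy knock-in the log2 fold change was 0.34 ± 0.15 and did not pass (limma adjusted p = 0.138). In gastrocnemius Eif4ebp2 ran from 337 to 405 CPM in sick and 214 to 463 CPM in wild-type libraries, and in quadriceps from 330 to 427 CPM and from 314 to 450 CPM. Those log2 fold changes were 0.26 ± 0.26 and 0.03 ± 0.15 (limma adjusted p = 0.51 and 0.921).

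Per kilobase of exon, Eif4ebp1 made up 50.8 to 76.2% of the 2 repressors in sick gastrocnemius, 12.8 to 18.2% in healthy knock-in gastrocnemius and 18.0 to 34.4% in wild-type gastrocnemius. Its share was 35.2 to 79.1% in sick, 14.5 to 33.1% in healthy knock-in and 17.7 to 21.4% in wild-type quadriceps. In tibialis it was 36.9 to 77.0% in sick, 17.4 to 25.4% in healthy knock-in and 21.8 to 36.7% in wild-type libraries. Per kilobase, Eif4ebp1 was thus the minor repressor transcript in every library that was not sick, and the major one in all sick gastrocnemius libraries. Not divided by length, sick gastrocnemius replicate 1 held 132 CPM of Eif4ebp1 and 337 CPM of Eif4ebp2. Replicates 2 and 3 held 419 and 431 CPM of Eif4ebp1, against 345 and 405 CPM of Eif4ebp2. These shares too were computed after the levels were seen and were not tested. They depend on lengths over all annotated exons, 2196 bases for Eif4ebp1 and 5784 for Eif4ebp2.

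Deptor (ENSMUSG00000022419; chr15:55112317-55259271, plus strand), which binds mTOR and inhibits both of its complexes, did not pass between sick and wild-type muscle. It held 52.5, 40.0 and 47.7 CPM in sick gastrocnemius, against 31.1, 93.7, 44.6 and 74.7 CPM in wild-type gastrocnemius. Sick quadriceps held 58.2, 76.5 and 143 CPM, against 121, 188, 147 and 74.3 CPM in wild-type quadriceps. Sick tibialis held 88.9, 63.2 and 84.9 CPM, against 50.8, 72.0, 33.1 and 40.1 CPM in wild-type tibialis. The groups overlapped in each muscle. Log2 fold changes were -0.29 ± 0.34, -0.51 ± 0.39 and 0.74 ± 0.27 (limma adjusted p = 0.587, 0.378 and 0.0709), and without wild-type replicate 2 the tibialis value was 0.95 and passed (0.0391). Exons of Deptor share 303 bases with Gm9920 on the opposite strand, and whether the counting used strand is not given in the sources used here, so part of its count may belong to that gene.

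**Figure D3:**
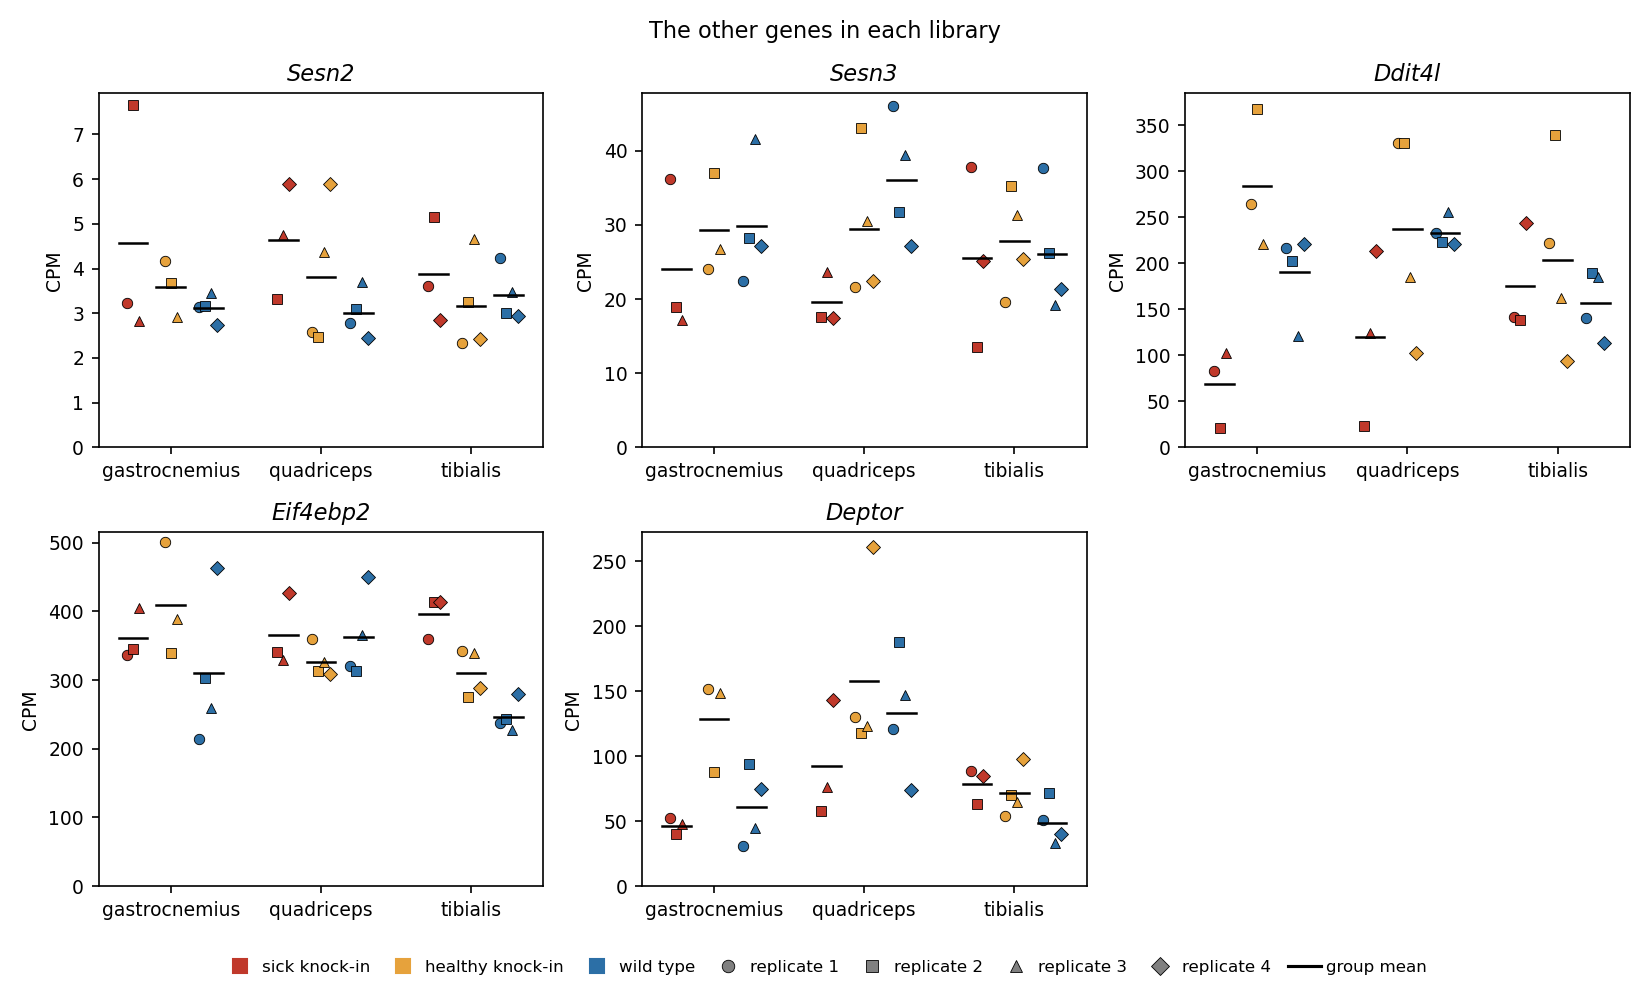
CPM of Sesn2, Sesn3, Ddit4l, Eif4ebp2 and Deptor (vertical axes, linear from 0) in each library, by muscle, with sick knock-in, healthy knock-in and wild type from left to right. Symbols give the replicate number and black bars the group means. Ddit4l is low in the sick libraries of gastrocnemius, at 21.6 to 103 CPM, and Deptor in healthy knock-in gastrocnemius, at 88.2 to 152 CPM, lies above its sick libraries.

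Sick and healthy knock-in mice carry the same alleles, so their comparison asks what sickness adds within the genotype. It shares the sick libraries with the comparison above. Sesn1 and Eif4ebp1 were higher in sick than in healthy knock-in muscle in all 3 muscles. In tibialis both groups compared lack the kidney reads of wild-type tibialis. The wild-type libraries still entered the scaling and the estimate of spread in that model. Healthy knock-in libraries held 20.5, 26.5 and 12.6 CPM of Sesn1 in gastrocnemius, 30.5, 30.9, 19.0 and 51.5 CPM in quadriceps and 24.4, 26.5, 17.0 and 56.0 CPM in tibialis, all below every sick library. The log2 fold change of Sesn1 was 4.06 ± 0.35 in gastrocnemius (limma adjusted p = 0.000931), where it had the lowest p of all 14155 genes, 3.24 ± 0.43 in quadriceps (0.00461) and 3.26 ± 0.54 in tibialis (0.0101). For Eif4ebp1 it was 3.33 ± 0.38 (0.0013), 3.15 ± 0.53 (0.0081) and 2.53 ± 0.46 (0.0138), against healthy levels of 27.9 to 30.6, 21.8 to 58.0 and 27.1 to 37.3 CPM. Leaving out any 1 gastrocnemius library, the one with kidney reads included, gave 3.71 to 4.38 for Sesn1 and 3.01 to 3.88 for Eif4ebp1 there, and both calls held. With only the 2 states in the model, both tibialis calls were lost (limma adjusted p = 0.0534 for Sesn1 and 0.0559 for Eif4ebp1).

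Ddit4l and Deptor were lower in sick than in healthy knock-in gastrocnemius. Ddit4l held 264, 367 and 221 CPM in the healthy libraries, all above the sick ones, and its log2 fold change was -2.25 ± 0.52 (limma adjusted p = 0.0202). Deptor held 152, 88.2 and 149 CPM in the healthy libraries, again all above the sick ones, with a log2 fold change of -1.42 ± 0.37 (0.03). Without healthy replicate 1 or 3 neither passed (0.0542 to 0.0987), without healthy replicate 2 Ddit4l did not (0.0573), and without sick replicate 2 or 3 Deptor did not (0.1 and 0.0716). Ddit4 had log2 fold changes of 2.93 ± 1.07, 3.18 ± 1.06 and 2.31 ± 0.92 and did not pass in any muscle (limma adjusted p = 0.093, 0.0603 and 0.111). Without healthy replicate 4 it was 3.72 in quadriceps and passed (0.0402), and without sick replicate 4 Ddit4l in quadriceps was -2.09 and passed (0.0342). The counts called were 2 higher and 2 lower in gastrocnemius, where 7.16% of all genes tested were higher and 6.9% lower. They were 2 higher and none lower in quadriceps (10.1% and 7.51% of all genes) and 2 higher and none lower in tibialis (5.03% and 6.3%).

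Healthy knock-in muscle was compared with wild type to see what the genotype shows without sickness. None of the 8 genes passed in any muscle, and few of any genes did: 1 gene or 0.00706% in gastrocnemius, 5 genes or 0.0362% in quadriceps and 72 genes or 0.496% in tibialis. At an unadjusted p under 0.05 there were 2, 0 and 2 of the 8 genes by limma, beside 1085, 636 and 716 of all genes. The lowest p was that of Deptor in gastrocnemius, at 129 ± 35.8 CPM in healthy knock-in libraries (SD, n = 3) and 61.0 ± 28.4 CPM in wild-type libraries (SD, n = 4). Its log2 fold change was 1.14 ± 0.36 (limma adjusted p = 0.599), with an interval of 0.35 to 1.92. Ddit4 in quadriceps had the largest log2 fold change of the 8 genes in the 3 muscles, 1.16 ± 0.97 (0.999), with overlapping groups. Sesn1 in gastrocnemius had a log2 fold change of -0.70 ± 0.31 (0.647), and all 3 healthy knock-in libraries were below the lowest wild-type library. In quadriceps and tibialis the intervals for Sesn1 ran from -1.13 to 0.61 and from -1.09 to 1.01, and for Eif4ebp1 from -1.27 to 0.90 and from -1.06 to 0.75, all short of the sick estimates.

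Whether the sick change differed between muscles was tested in a model of all 32 libraries. No member passed. Of 15229 genes, limma called 0 (0%) for quadriceps against gastrocnemius, where 173 had an unadjusted p under 0.05, and limma-trend also called 0. It called 31 (0.204%) for tibialis against gastrocnemius and 37 (0.243%) for tibialis against quadriceps. The sick change of Sesn1 in quadriceps minus that in gastrocnemius was -0.40 ± 0.67 on the log2 scale, with an interval of -1.77 to 0.97. Differences within that interval are not excluded. Ddit4l gave the lowest p of the 8 genes for tibialis against gastrocnemius, with a difference of 1.84 ± 0.80 (limma adjusted p = 1). For tibialis against quadriceps, Eif4ebp2 differed by 0.67 ± 0.26 (0.585) and Deptor by 1.25 ± 0.52 (0.599). The calls of Ddit4l in gastrocnemius, Sesn3 in quadriceps and Eif4ebp2 in tibialis are therefore not shown to be particular to those muscles.

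Between muscles of wild-type mice, Deptor was the 1 gene of the 8 that passed. It averaged 49.0 ± 17.0 CPM in tibialis and 133 ± 47.7 CPM in quadriceps (SD, n = 4 each), a log2 fold change of -1.38 ± 0.37 (limma adjusted p = 0.047), where 5.66% of 14708 genes passed. Without any 1 of quadriceps replicates 1, 2 and 3 or tibialis replicates 1, 3 and 4 this call was lost (0.0827 to 0.15). It held with the replicate number as a block (limma adjusted p = 0.0175), a model that raised the count of all genes called to 1610 where the unblocked one gave 833. None of the 8 genes passed between quadriceps and gastrocnemius, where 1.07% of genes did (158, or 250 with the block), or between tibialis and gastrocnemius, where 2.58% did. Deptor in quadriceps against gastrocnemius had a log2 fold change of 1.11 ± 0.37 (0.247).

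Levels of different genes were compared per kilobase of exon, with all annotated exons of a gene counted in its length. Over the 12 wild-type libraries Ddit4l was the most abundant, at 66.3 ± 15.7 CPM per kilobase (SD), followed by Eif4ebp2 at 53 ± 14.3, Ddit4 at 31.9 ± 39.3 and Eif4ebp1 at 15.5 ± 3.49. Deptor had 9.12 ± 5.53, Sesn1 8.13 ± 1.53, Sesn3 2.01 ± 0.57 and Sesn2 0.92 ± 0.14 CPM per kilobase. Neighbours in this order overlapped in their ranges except Sesn1 (6.40 to 11.4) with Sesn3 (1.26 to 3.02) and Sesn3 with Sesn2, whose highest library lay just below the lowest of Sesn3. The order of Deptor and Sesn1 depended on the muscle: Deptor was above Sesn1 in quadriceps (15 against 9.19 CPM per kilobase on average) and below it in gastrocnemius (6.88 against 7.74) and tibialis (5.52 against 7.46). In sick gastrocnemius the order by mean was Ddit4 (181 ± 106), Eif4ebp1 (149 ± 77.1), Sesn1 (86.5 ± 43.5), Eif4ebp2 (62.6 ± 6.48), Ddit4l (23.8 ± 14.6), Deptor (5.27 ± 0.71), Sesn3 (1.58 ± 0.69) and Sesn2 (1.32 ± 0.77 CPM per kilobase, SD, n = 3). The 3 leading genes overlapped one another. The gap between Sesn1 and its relatives in sick muscle was wider than in wild-type muscle, as the sestrin shares show.

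**Figure D4:**
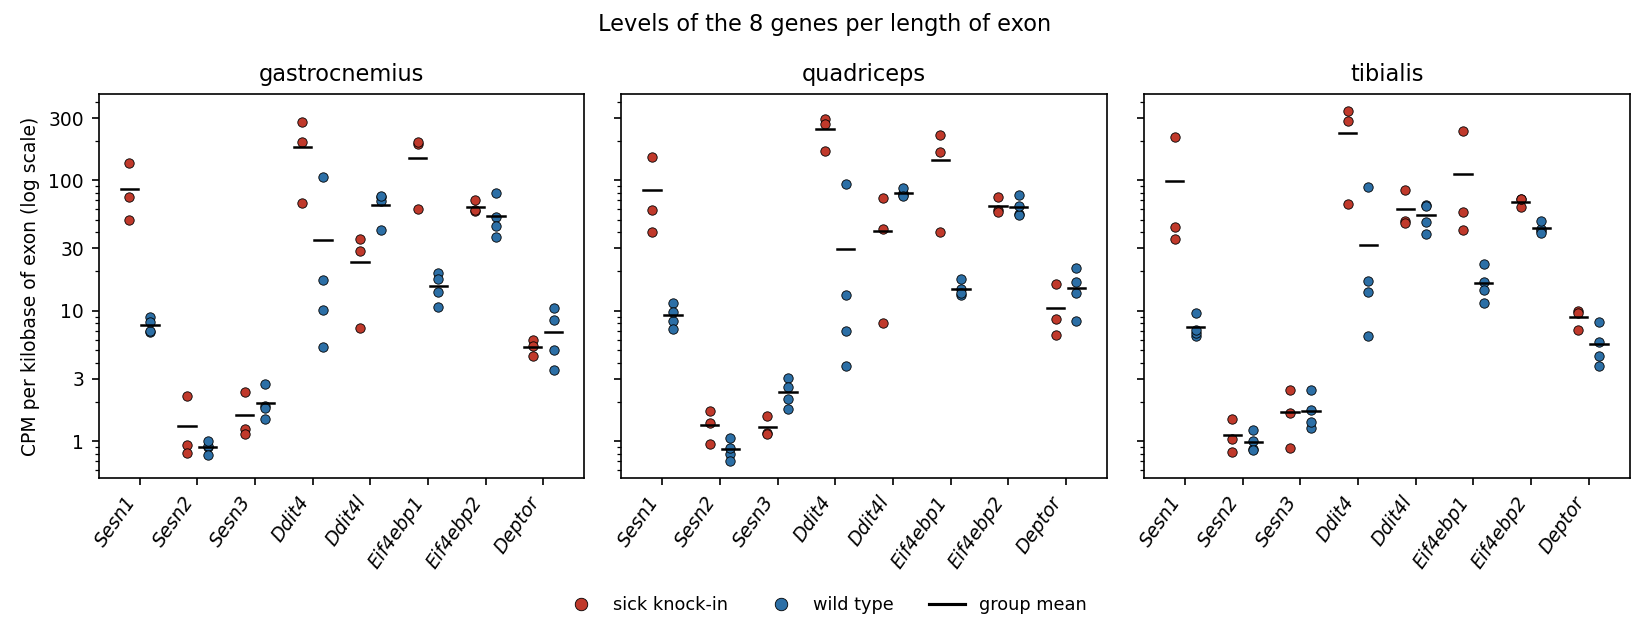
CPM per kilobase of exon (vertical axis, log scale) of the 8 genes in each sick knock-in library and each wild-type library, by muscle. Black bars are group means. Sesn2 and Sesn3 stay near the bottom in both states, and Sesn1, Ddit4 and Eif4ebp1 are the genes whose sick means stand highest above the wild-type means.

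The rest of the pathway was followed in 11 lists of 91 genes, of which 90 were tested. Between sick and wild-type muscle 19 were higher and 3 lower in gastrocnemius, 19 higher and 5 lower in quadriceps and 21 higher and 3 lower in tibialis. Of all genes tested, 8.22%, 10.5% and 8.44% were higher and 6.52%, 7.49% and 9.61% lower in these muscles. That is the background of each list count for sick against wild type that follows. The median log2 fold change of the 90 genes was 0.28, 0.20 and 0.28, beside -0.03, 0.00039 and -0.05 over all genes tested. None passed between healthy knock-in and wild type in any muscle. Between sick and healthy knock-in 11, 25 and 17 were higher and 5, 6 and 3 lower. In that comparison 7.16%, 10.1% and 5.03% of all genes tested were higher and 6.9%, 7.51% and 6.3% lower.

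Upstream insulin input carried many of these calls. Of its 10 genes, 5, 5 and 4 were higher in sick gastrocnemius, quadriceps and tibialis and none lower. Irs2, an adaptor of the insulin receptor, rose in gastrocnemius by 2.45 ± 0.74 (limma adjusted p = 0.0486), to 176 ± 119 CPM in sick, against 32.9 ± 32 CPM in wild-type libraries. The groups overlapped, with sick replicate 1 at 41.1 CPM and wild-type replicate 4 at 80.8 CPM. Calls of single pathway genes were not recomputed with libraries left out. Pik3r1, the regulatory subunit of phosphoinositide 3-kinase, rose by 1.87 ± 0.43 in gastrocnemius (0.0207) and 1.99 ± 0.35 in tibialis (0.00681). The list of transcription factors known to raise one or more of the 8 genes had 5, 5 and 6 of 10 higher and none lower. Klf15, a glucocorticoid target, rose by 2.22 ± 0.35, 2.19 ± 0.49 and 2.19 ± 0.57 (limma adjusted p = 0.00543, 0.0178 and 0.0241). It averaged 159 ± 68.1 CPM in sick and 33.8 ± 14.7 CPM in wild-type gastrocnemius. Foxo1 rose by 2.1 ± 0.59 in quadriceps (0.0351) and 2.01 ± 0.61 in tibialis (0.0411), and Cebpb by 1.53 ± 0.32 in quadriceps (0.0148).

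Genes of the same list that were picked after their values were seen included Atf4, which rose by 1.3 ± 0.23, 1.24 ± 0.28 and 1.3 ± 0.33 (limma adjusted p = 0.00722, 0.0165 and 0.023), to 385 ± 120 CPM in sick and 151 ± 26.2 CPM in wild-type gastrocnemius. Trp53 had log2 fold changes of -0.15 ± 0.21, 0.02 ± 0.14 and -0.06 ± 0.17 (0.659, 0.948 and 0.816). Both values describe transcripts, while p53 and ATF4 are set largely after transcription.

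AMPK, which restrains mTORC1 when energy is short, had 2 of 8 genes lower in gastrocnemius and in quadriceps and 1 higher in tibialis. Prkag3, its muscle-specific gamma subunit, had a log2 fold change of -2.67 ± 0.46 in gastrocnemius (limma adjusted p = 0.00749) and -2.95 ± 0.54 in quadriceps (0.0113). It stood at 20.6 ± 9.36 CPM in sick and 132 ± 59.4 CPM in wild-type gastrocnemius, and at 27.7 ± 25.1 CPM in sick and 160 ± 52.2 CPM in wild-type quadriceps. Prkab2, a beta subunit, fell by 0.96 ± 0.28 and 1.13 ± 0.35 in the same muscles (0.0404 and 0.0463). In quadriceps its sick replicate 4, at 505 CPM, lay within the wild-type range of 428 to 620 CPM. Kptn, which belongs to the KICSTOR scaffold that holds GATOR1 at the lysosome, fell by 1.23 ± 0.26, 0.96 ± 0.19 and 1.03 ± 0.24 (limma adjusted p = 0.0133, 0.0127 and 0.0182). In tibialis Tbc1d7, the third subunit of the TSC complex, fell by 0.85 ± 0.20 (0.0189) and Lamtor1, the membrane anchor of Ragulator, by 0.54 ± 0.17 (0.0431).

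The core machinery follows. Of the 10 subunits and assembly factors of the mTOR complexes, 1 was higher in each muscle, a share near that of all genes, and none lower, and in gastrocnemius and quadriceps that gene was Mtor, at 0.84 ± 0.24 and 0.88 ± 0.26 (limma adjusted p = 0.0417 and 0.0377). In tibialis it was Rictor, the defining subunit of mTORC2, at 0.96 ± 0.24 (0.0213), and both are named after their values were seen. GATOR2, the partner of sestrins, had none of 5 genes called in any muscle. The Rag GTPases and Ragulator had 0, 1 and 0 of 9 higher and 0, 1 and 1 lower. GATOR1 and KICSTOR had 1, 0 and 0 of 6 higher and 1 lower in each muscle. The TSC complex and Rheb had 1, 0 and 1 of 5 higher and 0, 1 and 1 lower. Amino acid sensors other than sestrins had 3, 2 and 3 of 9 higher and none lower, the S6 kinase and translation list 2, 3 and 3 of 10 higher and none lower, and the autophagy and lysosome list 1, 2 and 2 of 8 higher and none lower.

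The genes whose levels most resembled each of the 8 over the 32 libraries were found by Pearson correlation of log2 CPM among 15221 other genes. The libraries share 9 groups, and same-numbered ones may share a mouse, and the sick libraries stand apart for Sesn1 and Eif4ebp1, so r is also given within the 9 sick and within the 23 other libraries. Closest to Sesn1 was Foxo3, a FoxO factor, with r = 0.964 over all, 0.888 within the sick and 0.828 within the other libraries, followed by Ezh1 (0.957, 0.931 and 0.399) and Gucd1 (0.954, 0.948 and 0.417). Foxo3 averaged 107 ± 10.1 CPM in sick and 35.3 ± 10.2 CPM in wild-type gastrocnemius. Closest to Eif4ebp1 were Anapc16 (0.972, 0.956 and 0.78), Vegfd (0.968, 0.975 and 0.472) and 2410006H16Rik (0.967, 0.956 and 0.476). The neighbours of Ddit4 were the immediate-early and stress genes Zfp36 (0.948, 0.974 and 0.908), Cebpd (0.944, 0.778 and 0.91) and Klf6 (0.938, 0.581 and 0.931). For Ddit4 the likeness held as well in the libraries that were not sick, where its level also ran over a wide range.

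Closest to Ddit4l were Slc37a4 (r = 0.852 over all, 0.928 within the sick and 0.522 within the other libraries), Nck2 (0.851, 0.886 and 0.854) and Ank1 (0.842, 0.775 and 0.844). Closest to Deptor were Piezo1 (0.869, 0.595 and 0.925), Gfpt1 (0.869, 0.833 and 0.907) and Usp9x (0.855, 0.76 and 0.863). Eif4ebp2 lay nearest to Arfgef1 (0.889, 0.642 and 0.893), Hipk3 (0.875, 0.711 and 0.87) and Camsap1 (0.871, 0.528 and 0.908). Sesn3 lay nearest to Zfp354c (0.798, 0.714 and 0.774), Cc2d2a (0.773, 0.748 and 0.705) and Col13a1 (0.77, 0.853 and 0.725). Sesn2, the least abundant of the 8, had the weakest neighbours over all libraries, with Adtrp (0.651, 0.715 and 0.524), Tmem104 (0.647, 0.761 and 0.452) and Adcy3 (0.645, 0.821 and 0.651). Among the 8 genes themselves, Sesn1 and Eif4ebp1 had r = 0.954 over all libraries, 0.878 within the sick and 0.47 within the others. Sesn1 and Ddit4 had 0.71, 0.502 and 0.0665, and Sesn1 and Ddit4l had -0.661, -0.635 and -0.304.

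**Figure D5:**
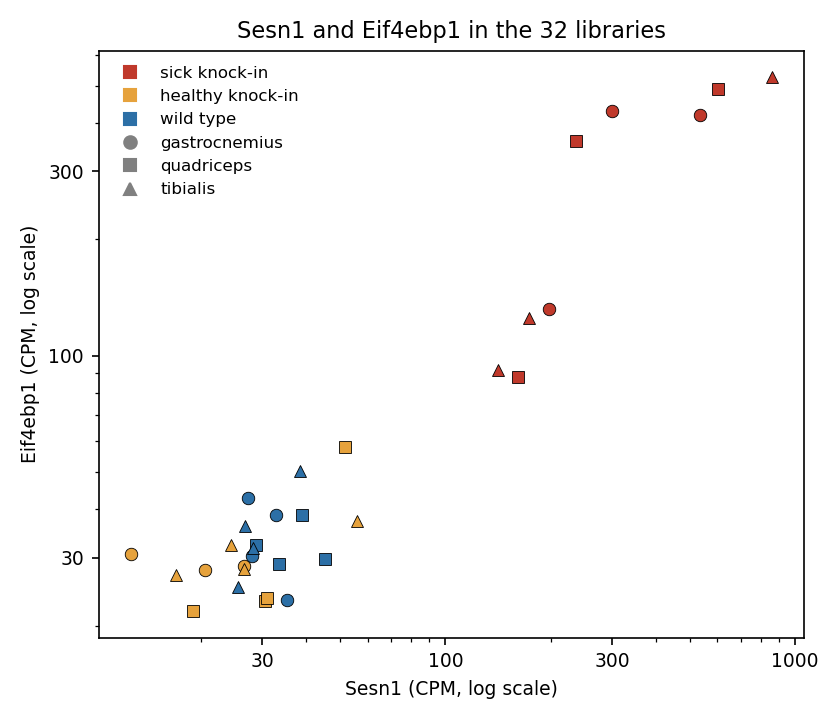
CPM of Sesn1 (horizontal axis) against Eif4ebp1 (vertical axis), both on log scales, in the 32 libraries, with colour for the state and symbol for the muscle. The 9 sick libraries lie apart, from 141 to 859 CPM of Sesn1 and from 87.9 to 525 CPM of Eif4ebp1, and the libraries of the other states lie together at 12.6 to 56.0 and 21.8 to 58.0 CPM.

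In the authors' deposited table Sesn1 has log2 fold changes of 3.49, 3.19 and 3.72 between sick and wild-type gastrocnemius, quadriceps and tibialis, with 2.39e-09, 1.41e-07 and 9.29e-11 as adjusted p. For Ddit4 the authors' deposited table gives 2.39, 3.06 and 2.86, with adjusted p of 0.138, 0.048 and 0.0518, so that the tibialis call made here is not under 0.05 there. For Sesn3 in quadriceps the authors' deposited table gives -0.88 with an adjusted p of 0.0706, likewise not under 0.05.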

How the data were processed

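Total RNA of 3 muscles was measured in 32 libraries. The deposited table holds, per the file headers, raw counts per gene and library, which are whole numbers, 32 columns of scaled counts that were not used here, and log2 fold changes with adjusted p-values from the authors, printed only where the text names the authors' deposited table. Per the submitters' processing notes the build was GRCm38 and the tools included DESeq2 1.22.1, HTSeq 0.6.0, TopHat2 2.1.1 and cutadapt 1.18. No setting, such as the strand option, is stated in the labels. Of 54838 genes listed, 6252 carry a question mark in place of a count and are not analysed here. These marks kept the columns from being classed as counts, so limma-voom was used.

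Samples were grouped by the labels for muscle, genotype and phenotype. The software was limma 3.58.1 under R 4.3.3. A gene was tested if its summed count reached 15 and if, in a number of libraries equal to the smallest group's, its CPM was that of 10 counts at the median library size. Library totals were scaled with the trimmed mean of M values (trims 0.3 and 0.05), 0.5 was added to each count, and group means were fitted with voom weights and robust moderation. P-values were adjusted by Benjamini-Hochberg over all genes tested, with a threshold of 0.05, and intervals are 95%. The model was tested on simulated data. Each muscle had 1 model for its 3 states. Muscles of wild type were compared in the 12 wild-type libraries, and changes between muscles in all 32. Total counts ran from 7685164 to 42588233, so low genes such as Sesn2 are less precise in small libraries.

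The members and gene lists were chosen with earlier results of these data known, so they support nothing on their own. Named beside the 8 genes are, in each comparison of sick with wild type, the 3 called pathway genes with the largest and the 3 with the smallest log2 fold change, and for each member the 3 genes most correlated with it. Exon lengths and positions are from GENCODE vM21, and promoter windows from RefSeq (GRCm38.p6), which matched 6 of the 8 genes. No pair of replicates looked like 1 library deposited again (42 pairs, chi-square per gene 12 to 197). Replicate numbers come from the labels. Deviations of same-numbered libraries of different muscles correlated (median r 0.425, over 0.1 in 26 of 28 pairs), and in every pair of quadriceps with gastrocnemius and of tibialis with quadriceps, so the numbers were taken to pair those muscles. Alternatives were the replicate number as a block, median-of-ratios scaling, no filter, limma-trend, other sets of libraries in the model and leaving out each library.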

Additional observations from a re-analysis of the deposited data

Results flagged for a closer look

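Of 40 groups of 4 libraries checked, 5 held a library whose gap to its nearest neighbour took most of the range of the group. Chance would give about 1 group in 20, or 2 of 40, if the values were normally distributed. The CPM were checked without logs and need not be so distributed. The groups are also not independent, since the genes were read in the same libraries, so flags can come together. In 3 of the 5 groups the library was wild-type replicate 4 for Ddit4, a separate library in each muscle. These libraries may share a mouse. Replicate 4 held 186 CPM in gastrocnemius, where the other wild-type libraries held 9.26 to 30.2 CPM. In quadriceps it held 165 CPM, against 6.63 to 23.1 CPM in the others, and in tibialis 157 CPM, against 11.2 to 29.7 CPM. The changes of Ddit4 without wild-type replicate 4 are given with that gene above. Healthy knock-in replicate 4 was also the highest of its group for Ddit4, though those groups were not flagged. It held 199 CPM in quadriceps, where the other healthy knock-in libraries held 10.7 to 59.0 CPM. In tibialis it held 223 CPM, against 26.5 to 75.5 CPM in the others and 116 CPM in sick replicate 1. Healthy knock-in replicate 4 of quadriceps stood apart for Eif4ebp1, at 58 CPM where the other healthy knock-in libraries held 21.8 to 23.6 CPM. The same library stood apart for Deptor, at 261 CPM against 118 to 130 CPM in the others. It has the lowest total count of the 32 libraries, 7685164. What sets these libraries apart was not tested.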

How the results depend on the processing

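Over 1664 recomputed fold changes of the 8 genes, 1606 stayed as they were, whether called or not called. A call was lost in 50 and gained in 8, and none of the called ones changed sign. Results without a call in the main fit are part of the 1664, so the 50 are a larger share of the calls than of the 1664. The called count of the 8 genes moved by over 1.5 times in these cases. Leaving out 1 library at a time gave 2 to 4 genes for sick against healthy gastrocnemius (4 with all libraries), 1 to 4 for sick against wild-type quadriceps (4), and 0 to 1 for wild-type tibialis against quadriceps (1). With no filter on low counts it was 1 for sick against healthy tibialis (2 with the filter) and 0 for wild-type tibialis against quadriceps. With only the 2 states compared in the model it was 0 for sick against healthy tibialis, where 95 of all genes passed in place of 1646; the cause of these shifts was not tested.

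Within a muscle the numbers do not pair the states (over 0.1 in 6 of 29 same-number pairs, median r -0.000691). With the replicate block between sick and wild type, 3 of the 8 genes passed in each muscle, and 879 and 1282 of all genes passed in quadriceps and tibialis, where the model without it gave 2489 and 2621. The block ended the calls of Ddit4l in gastrocnemius, Sesn3 in quadriceps and Eif4ebp2 in tibialis (limma adjusted p = 0.104, 0.0715 and 0.0512), and Ddit4 in gastrocnemius passed (0.0211). Between sick and healthy gastrocnemius, Deptor was lost (0.0599) and Ddit4 passed (0.0485). In the pairing of muscles it changed no other call of the 8 genes. With 3 or 4 libraries in a group, changes within the intervals given are not excluded.

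Counts over all genes moved more. Leaving out 1 library at a time gave 561 to 2547 genes for sick against wild-type gastrocnemius (2086 with all libraries), 83 to 4247 for quadriceps (2489) and 957 to 3044 for tibialis (2621). For sick against healthy it gave 728 to 2393 (1989), 289 to 4096 (2432) and 266 to 2305 (1646), for healthy against wild type 1 to 9 (1), 2 to 13 (5) and 55 to 68 (72), and for wild-type muscles 50 to 220 (158, quadriceps against gastrocnemius), 186 to 482 (380, tibialis against gastrocnemius) and 296 to 1188 (833, tibialis against quadriceps). The other settings gave 1234 to 3282, 879 to 2489 and 1235 to 3881 for sick against wild type, 1526 to 2958, 363 to 2581 and 95 to 2953 for sick against healthy, and 1 to 11, 2 to 9 and 56 to 123 for healthy against wild type. For wild-type muscles they gave 93 to 250, 377 to 704 and 787 to 1610, in the order above. For the differences between muscles they gave 20 to 79 (31, tibialis against gastrocnemius) and 37 to 77 (37, tibialis against quadriceps), and leaving out 1 library gave 20 to 28 and 21 to 44.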
